A study of Mus musculus with 9 samples.

Results

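The EGR, NR4A and other immediate early genes described here are Egr1, Egr2, Egr3, Nr4a1, Nr4a2, Nr4a3, Ier2, Ier3, Dusp1 and Zfp36, 10 genes of the 54838 in the deposited matrix, taken by their symbol. RNA was sequenced from adult mouse corona radiata, the innermost cumulus granulosa cells around the oocyte, after the ovaries had been stimulated with PMSG and hCG. The labels add an unexplained "J4" to this treatment and do not give the hours from hCG to collection. The 9 libraries form 3 genotypes of 3 libraries each. The transgenic libraries come from mice labelled DKO LXR TG-AMH-LXRb, which lack both liver X receptors and carry a transgene named after AMH and LXRb. The LXR DKO libraries come from the double knockout without the transgene, and the WT libraries from wild type mice. All libraries share the hormone treatment. The labels describe neither the promoter nor the coding part of the transgene, and they do not say whether a library is 1 animal or a pool. No label ties replicates to separate animals, so p-values reflect the variation among these libraries and that variation may be technical.

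Immediate early genes are transcribed within minutes of a signal because the factors that switch them on, such as SRF and CREB, are already in the cell. Their mRNAs are short-lived, so a level read at 1 time depends on how recently the cell was stimulated. In granulosa cells the ovulatory gonadotropin surge induces EGR and NR4A genes. EGR proteins are zinc finger transcription factors, NR4A proteins are orphan nuclear receptors, DUSP1 is a phosphatase that switches off MAP kinases, and ZFP36 (tristetraprolin) binds AU-rich mRNAs and speeds their decay.

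The libraries rest on 31086718 to 47038045 reads as the scale behind the deposited RPKM values (reads scaled to gene length and library size). Nr1h2, the LXR beta gene, lay at 4.83 to 6.70 RPKM in transgenic libraries, 2.85 to 3.57 RPKM in LXR DKO libraries and 39.7 to 45.7 RPKM in WT libraries. Nr1h3, the LXR alpha gene, lay at 0.395 to 0.819 RPKM in transgenic, 0.713 to 1.08 RPKM in LXR DKO and 3.50 to 5.72 RPKM in WT libraries. All 13 granulosa and cumulus markers were detected in every genotype. Their summed level was 536 to 688 RPKM in transgenic, 489 to 718 RPKM in LXR DKO and 1040 to 1240 RPKM in WT libraries. Inha and Tnfaip6 had the highest means among them and so weigh most in the sum. Tnfaip6 averaged 135 RPKM in transgenic, 103 RPKM in LXR DKO and 388 RPKM in WT libraries. The means of Fshr, Nr5a1 and Nr5a2 were higher in LXR DKO (6.99, 35.0 and 4.24 RPKM) than in WT libraries (5.74, 30.0 and 3.43 RPKM). Those of the other markers of this list were lower in LXR DKO. Markers of other cells were detected too, and none was at 0 in all libraries of a genotype. Some were barely above 0, such as Cyp17a1 at 0 to 0.119 RPKM and Emcn at 0 to 0.0758 RPKM. Such values do not show that a cell type was present. The 10 oocyte markers reached a sum of 486 RPKM in LXR DKO 1 and of 792 RPKM in WT 1, against at most 54.5 RPKM elsewhere. The 6 erythroid markers summed to 9881 RPKM in WT 3, against at most 970 RPKM elsewhere. The 7 oviduct epithelium markers summed to 1375 to 1938 RPKM in transgenic libraries, 258 to 712 RPKM in LXR DKO libraries, and 67.5, 119 and 1228 RPKM in WT 1 to 3. WT 3 therefore stood apart from WT 1 and WT 2. In such bulk samples fewer cells of a type and less RNA per cell cannot be told apart.

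Immediate early promoters are known for short elements that receive the inducing signal, so the stretch before the start of transcription is shown for the NR4A family, for Egr2, which had the greatest difference in LXR DKO against WT, and for Dusp1, the one gene lower in every transgenic than in any LXR DKO library. The sequences are RefSeq's (GRCm38.p6), 5′ to 3′ on the strand of the gene, and end where an annotated exon begins. Capitals mark the CRE core TGACG, the full CRE TGACGTCA, which contains it, and EGR sites, on either strand.
Nr4a1 at chr15:101266596-101266845, plus strand: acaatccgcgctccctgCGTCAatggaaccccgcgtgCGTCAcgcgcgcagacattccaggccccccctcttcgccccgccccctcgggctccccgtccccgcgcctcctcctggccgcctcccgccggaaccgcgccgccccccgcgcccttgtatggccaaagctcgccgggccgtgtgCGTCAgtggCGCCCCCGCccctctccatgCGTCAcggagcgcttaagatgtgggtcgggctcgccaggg
Nr4a2 at chr2:57124004-57124253, minus strand: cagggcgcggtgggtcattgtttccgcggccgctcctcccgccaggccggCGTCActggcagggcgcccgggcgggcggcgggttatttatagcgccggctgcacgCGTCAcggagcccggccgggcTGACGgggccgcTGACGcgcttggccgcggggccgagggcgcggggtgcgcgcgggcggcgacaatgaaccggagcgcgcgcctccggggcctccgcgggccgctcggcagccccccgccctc
Nr4a3 at chr4:48045055-48045152, plus strand: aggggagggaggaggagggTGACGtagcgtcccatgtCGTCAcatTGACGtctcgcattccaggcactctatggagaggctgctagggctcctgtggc
Egr2 at chr10:67535249-67535474, plus strand: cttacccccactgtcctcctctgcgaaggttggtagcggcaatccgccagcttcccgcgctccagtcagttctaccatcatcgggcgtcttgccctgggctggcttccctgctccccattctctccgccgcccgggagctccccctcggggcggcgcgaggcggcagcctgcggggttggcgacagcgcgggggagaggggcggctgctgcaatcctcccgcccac
Dusp1 at chr17:26508520-26508722, minus strand: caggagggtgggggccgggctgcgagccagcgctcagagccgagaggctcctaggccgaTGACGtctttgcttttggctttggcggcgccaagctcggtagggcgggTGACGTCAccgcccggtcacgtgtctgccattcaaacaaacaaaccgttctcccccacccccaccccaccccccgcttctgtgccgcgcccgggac

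RefSeq windows from 250 bases before to 50 bases after the start were found for 7 of the 10 genes: Egr2, Nr4a1, Nr4a2, Nr4a3, Ier3, Dusp1 and Zfp36. A CRE core stood in 4 of these 7, against 20.8% of all 32851 windows. Each NR4A window held 4 such cores, of which 3 lie in the stretch shown for Nr4a3, and the Dusp1 window 3. Of these 3, 2 are the opposite strands of a single full CRE, a palindrome found in 1.79% of all windows. An EGR site, GCGGGGGCG or GCGTGGGCG, stood in the windows of Nr4a1 and Zfp36, against 3.47% of all windows. The Zfp36 window alone held a CArG box, the SRF element, found in 1.63% of all windows. No window held the NR4A element AAAGGTCA (1.51% of all windows) or the AP-1 element TGACTCA or TGAGTCA (5.20%). The 3 NR4A genes shared CRE cores although their levels lay far apart. These are matches of letters and do not show that a factor was bound.

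The 10 genes covered more than 3 orders of magnitude per unit of length. Ier3, which protects cells from death signals, was highest in every library, at 549 to 738 RPKM in transgenic, 573 to 702 RPKM in LXR DKO and 470 to 778 RPKM in WT libraries. In WT libraries Ier2 (122 ± 25.4 RPKM) and Egr2 (119 ± 13.01 RPKM) came next (mean ± SD, n = 3), with overlapping values, and both lay above Egr1 (81.6 ± 10.9 RPKM) in their means. In transgenic libraries the order below Ier3 was Egr1 (75.1 ± 7.11 RPKM), Ier2 (69.2 ± 3.02 RPKM) and Egr2 (68.9 ± 16.5 RPKM). In LXR DKO libraries it was Ier2 (73.7 ± 11.3 RPKM), Egr1 (64.6 ± 7.59 RPKM) and Egr2 (55.1 ± 10.3 RPKM). In both genotypes neighbours among these 3 genes overlapped. Zfp36, Nr4a1 and Dusp1 came next, with overlapping neighbours in transgenic and WT libraries. In LXR DKO libraries Dusp1 overlapped Egr2 above it and lay apart from Zfp36 below it. Egr3, Nr4a2 and Nr4a3 followed in that order in every genotype. Each of the last 3 lay below its upper neighbour in every library. The mRNA of Nr4a3 was scarce, with 20 to 61 reads a library. Nr4a3 averaged 0.195 ± 0.0115 RPKM in transgenic, 0.142 ± 0.0360 RPKM in LXR DKO and 0.155 ± 0.0805 RPKM in WT libraries. Its groups overlapped. A value of 3 reads corresponds to 0.0107 to 0.0161 RPKM for this gene. It did not reach the minimum for testing, an RPKM of 1 in at least 3 libraries, so 9 of the 10 genes were tested. Those 9 had 327 to 38750 reads in a library.

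**Figure D1:**
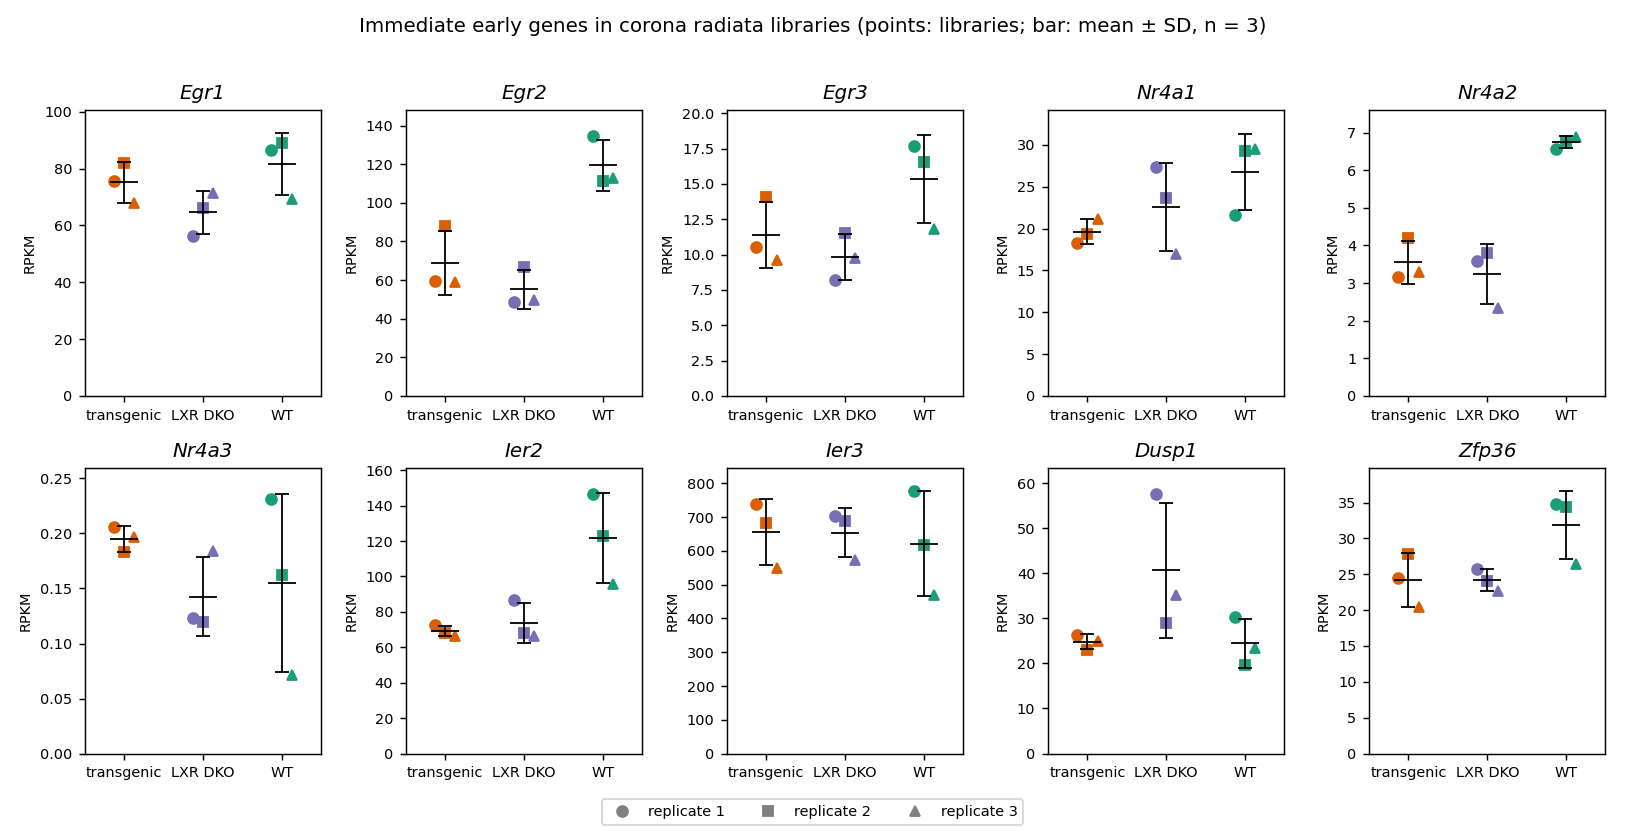
Deposited RPKM of each of the 10 genes in the 9 libraries, by genotype, with points for libraries (shape gives the replicate number) and bars for mean ± SD (n = 3). Egr2, Nr4a2 and Ier2 lie lower in every transgenic and LXR DKO library than in any WT library, Dusp1 is highest in LXR DKO 1 at 57.6 RPKM, and Ier3 overlaps between all genotypes.

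LXR DKO was compared with WT to see which of these genes differ with the loss of the receptors. Egr2, Nr4a2 and Ier2 fell, to 46.2%, 48.1% and 60.5% of their WT means. No gene rose, and Egr1, Egr3, Nr4a1, Ier3, Dusp1 and Zfp36 did not pass the test, so 3 of 9 passed (limma on log2(RPKM + 1), adjusted p under 0.05 over 16422 genes). Of all genes tested 10.6% passed in this comparison and 7.12% passed as lower and 3.47% as higher. The median log2 fold change of the 9 genes was -0.38, against 0.017 for all genes. In 5 of the 9 every LXR DKO library lay below every WT library, which held for 15.9% of all genes, and in 0 was every one above (13.1% of all genes). In the same comparison 5 of 12 tested granulosa and cumulus markers fell, 0 rose, and their median was -0.60. The 7 that did not pass ranged from -0.61 for Inha to 0.28 for Nr5a2, with Fshr and Nr5a1 both at 0.23. The part of these markers in the immediate early results was not tested.

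Egr2 (mm10 chromosome 10, 67535475 to 67542188), a zinc finger factor known for nerve myelination, showed the greatest fall among the 9 genes. LXR DKO 1 to 3 had 48.8, 67.0 and 49.6 RPKM of Egr2, against 134, 111 and 113 RPKM in WT 1 to 3. The highest LXR DKO value was thus far below the lowest WT value. Its log2 fold change was -1.11 ± 0.18 (SE; limma adjusted p = 0.0075). Across 21 alternative settings it ranged from -1.26 to -0.95 with adjusted p of 0.00515 to 0.0551, and the call was lost in 1 of them, without WT 1 and LXR DKO 1, the libraries with most oocyte RNA. Egr3 measured 8.23, 11.5 and 9.73 RPKM in LXR DKO libraries, against 17.7, 16.5 and 11.8 RPKM in WT libraries. Its groups did not overlap, but WT 3 lay close to LXR DKO 2 and the difference did not pass (-0.59 ± 0.19, limma adjusted p = 0.0825). Egr1, the most studied gene of the family, measured 56.3, 66.2 and 71.3 RPKM in LXR DKO libraries, against 86.7, 89.1 and 69.1 RPKM in WT libraries. Here WT 3 fell within the LXR DKO range, and the log2 fold change of -0.33 ± 0.13 did not pass (limma adjusted p = 0.142).

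Nr4a2 (chromosome 2, 57106830 to 57124003), a receptor required for midbrain dopamine neurons, measured 3.59, 3.81 and 2.33 RPKM in LXR DKO libraries, against 6.56, 6.78 and 6.88 RPKM in WT libraries. The WT libraries were tight, with a coefficient of variation of 2.38%, and lay wholly above the knockouts. Its log2 fold change was -0.89 ± 0.15 (limma adjusted p = 0.00959), and the call was kept in all 20 alternatives that tested it (-1.09 to -0.72, adjusted p of 0.00897 to 0.0391). Nr4a1, known as Nur77, measured 27.3, 23.6 and 16.9 RPKM in LXR DKO libraries, against 21.6, 29.3 and 29.5 RPKM in WT libraries. These ranges overlapped and the log2 fold change was -0.25 ± 0.18 (limma adjusted p = 0.426), with a 95% interval of -0.65 to 0.16.

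Ier2 (chromosome 8, 84661331 to 84662852), a small nuclear protein gene induced with the others, measured 86.7, 68.0 and 66.3 RPKM in LXR DKO libraries, against 147, 123 and 95.9 RPKM in WT libraries. The groups did not overlap, but the gap between LXR DKO 1 and WT 3 was small. Its log2 fold change was -0.71 ± 0.16 (limma adjusted p = 0.0257). The call was lost in 6 of 21 alternatives: when LXR DKO 2, LXR DKO 3, WT 1 or WT 2 was left out, with no filter, and with only these genotypes in the fit (log2 fold changes of -0.71 to -0.56 in these 6, adjusted p of 0.0667 to 0.102; 0.00259 to 0.102 over all 21). Ier3 measured 702, 688 and 573 RPKM in LXR DKO libraries, against 778, 616 and 470 RPKM in WT libraries, and its log2 fold change of 0.099 ± 0.19 (95% interval -0.34 to 0.54) did not pass (limma adjusted p = 0.797).

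Dusp1 and Zfp36, which both damp the response that induces them, pointed in opposite directions without passing the test. Dusp1 measured 57.6, 29.1 and 35.2 RPKM in LXR DKO libraries, against 30.3, 19.6 and 23.5 RPKM in WT libraries. LXR DKO 1 was far above the others, and the ranges overlapped at LXR DKO 2 and WT 1. The log2 fold change was 0.67 ± 0.24 (limma adjusted p = 0.111), and 0.40 without LXR DKO 1 (limma adjusted p = 0.183; 0.0412 to 0.253 over 21 alternatives). Zfp36 measured 25.8, 24.0 and 22.7 RPKM in LXR DKO libraries, against 34.8, 34.3 and 26.4 RPKM in WT libraries. LXR DKO 1 came close to WT 3 without overlap, and the log2 fold change of -0.38 ± 0.14 did not pass (limma adjusted p = 0.123). Several of these results depended on WT 3. Without it 6 genes fell instead of 3, adding Egr1 (-0.44, adjusted p = 0.0442), Egr3 (-0.75, adjusted p = 0.0274) and Zfp36 (-0.50, adjusted p = 0.0360) in limma. Over all alternatives the adjusted p ranged from 0.0442 to 0.466 for Egr1, 0.0274 to 0.331 for Egr3 and 0.0276 to 0.307 for Zfp36.

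**Figure D2:**
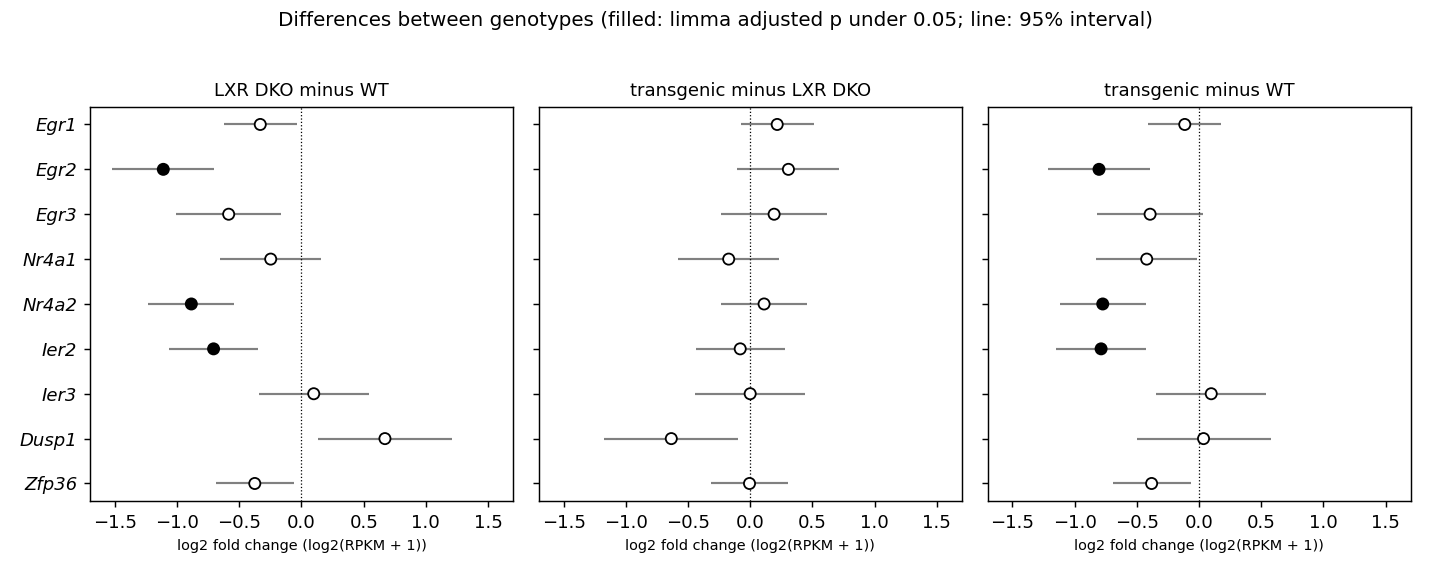
Log2 fold change of the 9 tested genes on the log2(RPKM + 1) scale in the 3 comparisons, with 95% intervals as lines and filled points where the limma adjusted p is under 0.05. Egr2, Nr4a2 and Ier2 are filled and negative in LXR DKO minus WT and in transgenic minus WT, and no point is filled in transgenic minus LXR DKO.

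Transgenic and WT libraries were compared to see whether knockouts that carry the transgene still differ from wild type. Egr2, Nr4a2 and Ier2 again were lower, at 57.7%, 52.6% and 56.8% of their WT means. This comparison uses the same WT libraries as the one above, so the results are not independent. Of the 9 genes 3 fell, 0 rose and 6 did not pass (limma), beside 11.9% of all genes passing and 6.72% passing as lower and 5.15% as higher. The median log2 fold change was -0.39, against 0.015 for all genes. In 4 of the 9 every transgenic library lay below every WT library, as for 18.9% of all genes, and in 0 above (16.8% of all genes). Of 12 tested granulosa and cumulus markers 6 fell and 0 rose here (median -0.67). The 6 that did not pass ranged from -0.59 for Inha to 0.19 for Fshr. Among these, Amhr2, Nr5a1 and Nr5a2 had log2 fold changes of -0.00053, 0.042 and 0.065. Of 8 macrophage markers 4 fell (median -1.08). The macrophage markers summed to 108 to 176 RPKM in transgenic and 200 to 393 RPKM in WT libraries. The oviduct epithelium markers had a median of 1.80, with 1 of 7 past the test as higher. Their part in the immediate early results was not tested.

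Egr2 measured 59.6, 87.9 and 59.1 RPKM in transgenic 1 to 3, against 111 to 134 RPKM in WT libraries. Transgenic 2 came closest to WT, and the groups did not overlap (log2 fold change -0.80 ± 0.18, limma adjusted p = 0.0266). Nr4a2 measured 3.16, 4.20 and 3.28 RPKM in transgenic libraries, against 6.56 to 6.88 RPKM in WT libraries, again without overlap (-0.77 ± 0.15, limma adjusted p = 0.0165). Ier2 measured 72.5, 68.3 and 66.6 RPKM in transgenic libraries, against 95.9 to 147 RPKM in WT libraries. The transgenic values were close together, and the log2 fold change was -0.79 ± 0.16 (limma adjusted p = 0.018). Nr4a1 measured 18.2, 19.4 and 21.2 RPKM in transgenic libraries, against 21.6, 29.3 and 29.5 RPKM in WT libraries. Transgenic 3 came close to WT 1 without overlap, and -0.42 ± 0.18 did not pass (limma adjusted p = 0.153). The remaining log2 fold changes, none past the test, were -0.39 for Egr3, -0.38 for Zfp36, -0.11 for Egr1, 0.036 for Dusp1 and 0.098 for Ier3.

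These calls were sensitive to leaving out single libraries. The log2 fold changes then ranged from -0.99 to -0.71 for Egr2, -0.87 to -0.71 for Nr4a2 and -0.95 to -0.64 for Ier2. Calls over all genes ranged from 650 to 3555, against 1949 with all libraries. None of the 3 was kept without WT 2, transgenic 1 or transgenic 3, and in each of these settings 0 genes passed (unadjusted p under 0.05 held for 5 of the 9 with all libraries). The Egr2 call was also lost without WT 1, with no filter and without WT 1 and LXR DKO 1 (adjusted p of 0.0103 to 0.0962 over 21 alternatives). That of Ier2 was also lost without transgenic 2 (0.00153 to 0.0685 over 21 alternatives), and that of Nr4a2 in no further setting (0.00755 to 0.0647 over 20). Without WT 3 there were 5 calls, adding Egr3 (-0.56, limma adjusted p = 0.0493) and Zfp36 (-0.51, limma adjusted p = 0.0232). Over all alternatives the adjusted p ranged from 0.0369 to 0.437 for Egr3 and from 0.0191 to 0.290 for Zfp36.

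Transgenic libraries were set against LXR DKO libraries to see what the transgene changed on the knockout background. None of the 9 genes passed in limma or with voom, and 1 had an unadjusted p under 0.05 in limma. Of all genes 0.116% passed, 0.0609% as lower and 0.0548% as higher. No gene of the 9 was higher in every transgenic library, as 11.3% of all genes were. The median log2 fold change was -0.00045 for the 9 genes and 0.013 for all genes. Egr2 averaged 68.9 ± 16.5 RPKM in transgenic and 55.1 ± 10.3 RPKM in LXR DKO libraries (SD, n = 3), with overlapping values and a log2 fold change of 0.31 (95% interval -0.10 to 0.72). For Nr4a2 the difference was 0.11 (-0.23 to 0.46) and for Ier2 it was -0.081 (-0.44 to 0.28). These intervals do not show that the genotypes are alike. Their upper ends lie below the estimated size of the fall of each gene in LXR DKO against WT. That fall is itself uncertain, and for Egr2 its 95% interval of -1.52 to -0.70 overlaps in size with the upper end of 0.72. Both comparisons use the same LXR DKO libraries, so they are not independent. Dusp1 was the gene with the low unadjusted p. It measured 26.3, 23.0 and 25.1 RPKM in transgenic libraries, against 57.6, 29.1 and 35.2 RPKM in LXR DKO libraries, every transgenic value being lower, as for 7.05% of all genes (-0.63 ± 0.24, limma adjusted p = 0.531). Without LXR DKO 1 its log2 fold change was -0.36 (limma adjusted p = 0.745; 0.254 to 0.918 over 21 alternatives). The macrophage markers, 8 genes, summed to 108 to 176 RPKM in transgenic libraries and to 241, 384 and 294 RPKM in LXR DKO 1 to 3. The neutrophil markers summed to 1.28 to 2.35 RPKM in transgenic and 3.29 to 15.3 RPKM in LXR DKO libraries. For the endothelial markers the sums were 2.44 to 3.05 and 3.35 to 5.89 RPKM. The oviduct epithelium markers were higher in transgenic libraries, at 1375 to 1938 against 258 to 712 RPKM. The part of these markers in the Dusp1 values was not tested.

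Ratios taken within a library do not depend on how libraries were scaled. They are given as a description, since the pairs set genes past the test beside relatives that were not and were chosen with the values known. Transgenic 1 to 3 had Egr2 to Egr1 ratios of 0.789, 1.07 and 0.872. The ratios of LXR DKO 1 to 3 were 0.867, 1.01 and 0.695, and those of WT 1 to 3 were 1.55, 1.25 and 1.63. Egr2 thus exceeded Egr1 in every WT library, and in 1 library each of the other genotypes. The Nr4a2 to Nr4a1 ratio averaged 0.182 ± 0.0316 in transgenic, 0.144 ± 0.0157 in LXR DKO and 0.256 ± 0.0416 in WT libraries, and every WT ratio lay above every other. The Ier2 to Ier3 ratio averaged 0.107 ± 0.0128 in transgenic, 0.113 ± 0.0126 in LXR DKO and 0.197 ± 0.00807 in WT libraries (SD, n = 3). Its WT values, 0.188, 0.199 and 0.204, were close together although WT 3 was the lowest WT library for both genes. The Egr3 to Egr1 ratio overlapped between all genotypes. In exact two-sided permutation tests the Egr2 to Egr1, Egr2 to Egr3, Nr4a2 to Nr4a1 and Ier2 to Ier3 ratios each gave p = 0.1 against WT in both comparisons, the smallest that 3 against 3 libraries allow (adjusted p = 0.188 over 15 tests), so none passed.

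**Figure D3:**
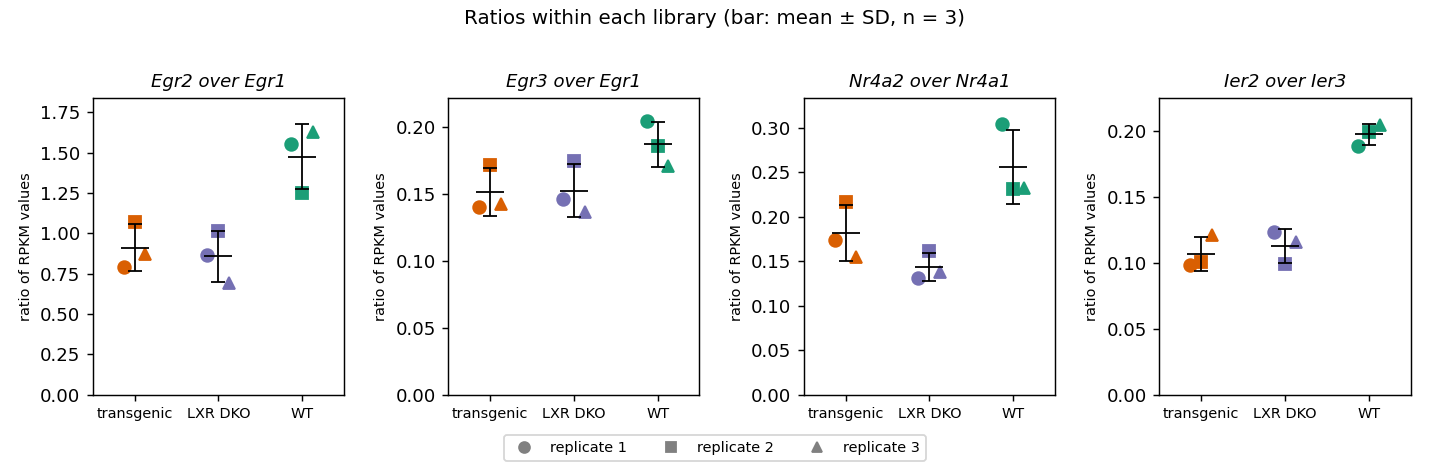
Ratio of RPKM values of 4 gene pairs within each library, by genotype, with points for libraries (shape gives the replicate number) and bars for mean ± SD (n = 3). The Egr2 to Egr1, Nr4a2 to Nr4a1 and Ier2 to Ier3 ratios are lower in every transgenic and LXR DKO library than in any WT library, and the Egr3 to Egr1 ratios overlap.

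Which library of 1 genotype was highest or lowest varied with the gene. Transgenic 2 held the highest transgenic value of Egr1, Egr2, Egr3, Nr4a2 and Zfp36, but the lowest of Dusp1 and Nr4a3. LXR DKO 2 held the highest LXR DKO value of Egr2, Egr3 and Nr4a2. LXR DKO 1 held that of Nr4a1, Ier2, Ier3, Dusp1 and Zfp36, and LXR DKO 3 that of Egr1 and Nr4a3. WT 3 held the lowest WT value of Egr1, Egr3, Nr4a3, Ier2, Ier3 and Zfp36, but the highest of Nr4a1 and Nr4a2. Whether the genes shared such differences more than all genes do was not tested. The genes nearest to the mean profile of the 9 tested genes, by the root mean square difference of centred log2 values over the 9 libraries, were Cdk11b (0.0583), Dnajc1 (0.0603), Dtymk (0.0643), Usf2 (0.0658) and Cd3eap (0.0664). Cdk11b, a cyclin-dependent kinase gene, averaged 12.0 RPKM in transgenic, 11.9 RPKM in LXR DKO and 15.4 RPKM in WT libraries. Of the 9 genes themselves Zfp36 was nearest to that mean profile (0.0693) and Dusp1 farthest (0.509). The mean includes the values of each of the 9, which brings them nearer to it. Even so, 68.8% of all genes tested lay nearer to it than Egr2, 37.9% nearer than Nr4a2 and 22.1% nearer than Ier2. The mean profile thus describes these 3 genes poorly.

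Other genes of the same response were examined from lists. Over all genes tested, 7.12% passed as lower and 3.47% as higher in LXR DKO against WT, and 6.72% passed as lower and 5.15% as higher in transgenic against WT. Changes of list genes are on the log2 scale. Of 8 AP-1 genes 4 fell, 0 rose and 4 did not pass in LXR DKO against WT (median -0.56), with the same counts in transgenic against WT (median -0.54). Jund, a stable AP-1 subunit, fell by 1.21 in LXR DKO, to 19.1 ± 7.30 RPKM against 43.9 ± 5.94 RPKM in WT (SD, n = 3; limma adjusted p = 0.0109). Jun, Fos and Junb fell by 0.81, 0.71 and 0.59 in the same comparison (limma adjusted p = 0.00201, 0.00774 and 0.0462). In the transgenic libraries the log2 fold changes against WT were -1.24 for Jund, -0.81 for Jun, -0.62 for Junb and -0.61 for Fos, all past the test.

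In the wider immediate early list genes passed in both directions, the share passing as lower in LXR DKO being near that of all genes. Of 24 tested genes 2 fell and 4 rose in LXR DKO against WT, and 3 fell and 2 rose in transgenic against WT. Ctgf, a matrix-associated growth factor gene, rose to 20.2 ± 1.98 RPKM in transgenic and 18.5 ± 2.15 RPKM in LXR DKO libraries, against 4.10 ± 0.761 RPKM in WT libraries (log2 fold changes of 2.06 in transgenic and 1.94 in LXR DKO). Cyr61, of the same family, rose by 0.82 in transgenic and 0.72 in LXR DKO libraries. Socs3, an inhibitor of cytokine signalling, rose by 0.48 and the bZIP repressor gene Nfil3 by 0.50 in LXR DKO against WT. Ier5l fell by 1.21 in transgenic and 1.23 in LXR DKO libraries, and the zinc finger gene Klf10 by 0.62 in transgenic and 0.71 in LXR DKO libraries. Klf6 fell by 0.40 in transgenic against WT.

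ERK feedback genes also split. Of 10 tested, 2 fell and 1 rose in each comparison with WT. Dusp6, the phosphatase that acts on ERK in the cytoplasm, measured 87.5 ± 11.8 RPKM in transgenic and 66.2 ± 3.71 RPKM in LXR DKO libraries, against 145 ± 19.5 RPKM in WT libraries (against WT, limma adjusted p = 0.0109 for transgenic and 0.00156 for LXR DKO). Dusp4 fell by 0.64 in transgenic and 0.72 in LXR DKO libraries, while the signalling inhibitor gene Spry2 rose by 0.84 in transgenic and 1.06 in LXR DKO libraries. Of 16 upstream regulators, among them Srf and Creb1, 1 fell in each comparison with WT and 15 did not pass, a share near that of all genes. The one was Elk1, an ETS factor that joins SRF at CArG boxes, with log2 fold changes of -0.67 in transgenic and -0.79 in LXR DKO libraries. Among 9 tested partners and repressors, Zfp36l1, a relative of Zfp36, measured 7.77 ± 0.683 RPKM in transgenic and 7.18 ± 1.10 RPKM in LXR DKO libraries, against 14.5 ± 2.38 RPKM in WT libraries, and passed as lower in both. Zfp36l2 passed as lower in LXR DKO (-0.60, limma adjusted p = 0.0478), and Cnot1, the scaffold of the deadenylase complex that ZFP36 recruits, as higher in transgenic against WT (0.64, adjusted p = 0.0413). Of 7 tested mRNAs known as ZFP36 targets, 1 rose in LXR DKO against WT and 0 in transgenic against WT. It was the cytokine gene Il1b, at 8.49 ± 4.30 RPKM in LXR DKO and 1.68 ± 0.385 RPKM in WT libraries (limma adjusted p = 0.0175). In the same libraries the 6 neutrophil markers summed to 3.29 to 15.3 RPKM in LXR DKO and 1.09 to 4.67 RPKM in WT libraries, and their part in the Il1b values was not tested. No gene of these 6 lists passed between transgenic and LXR DKO libraries in limma.

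Many of these calls depended on the setting. Of the 17 calls of list genes in LXR DKO against WT, 6 were kept in all alternatives that tested them: Fos, Jun, Klf10, Ctgf, Dusp6 and Zfp36l1. Of the 15 in transgenic against WT, 6 were kept in all: Jun, Jund, Klf10, Ctgf, Dusp6 and Zfp36l1. None of the calls changed sign. In LXR DKO against WT the Zfp36l2 call was kept in 7 of 21 alternatives, Junb in 8, Cyr61 in 9 and Socs3 in 11. In transgenic against WT the Spry2 call was kept in 7 of 21 and Cnot1 in 11. The Il1b call was kept in 16 of 20 alternatives and lost with no filter and without LXR DKO 2, LXR DKO 3 or WT 1 (limma adjusted p of 0.00568 to 0.0717 over the 20). The Elk1 call in LXR DKO was lost without the pair WT 1 and LXR DKO 1, and in transgenic libraries in 5 of 20 alternatives.

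**Figure D4:**
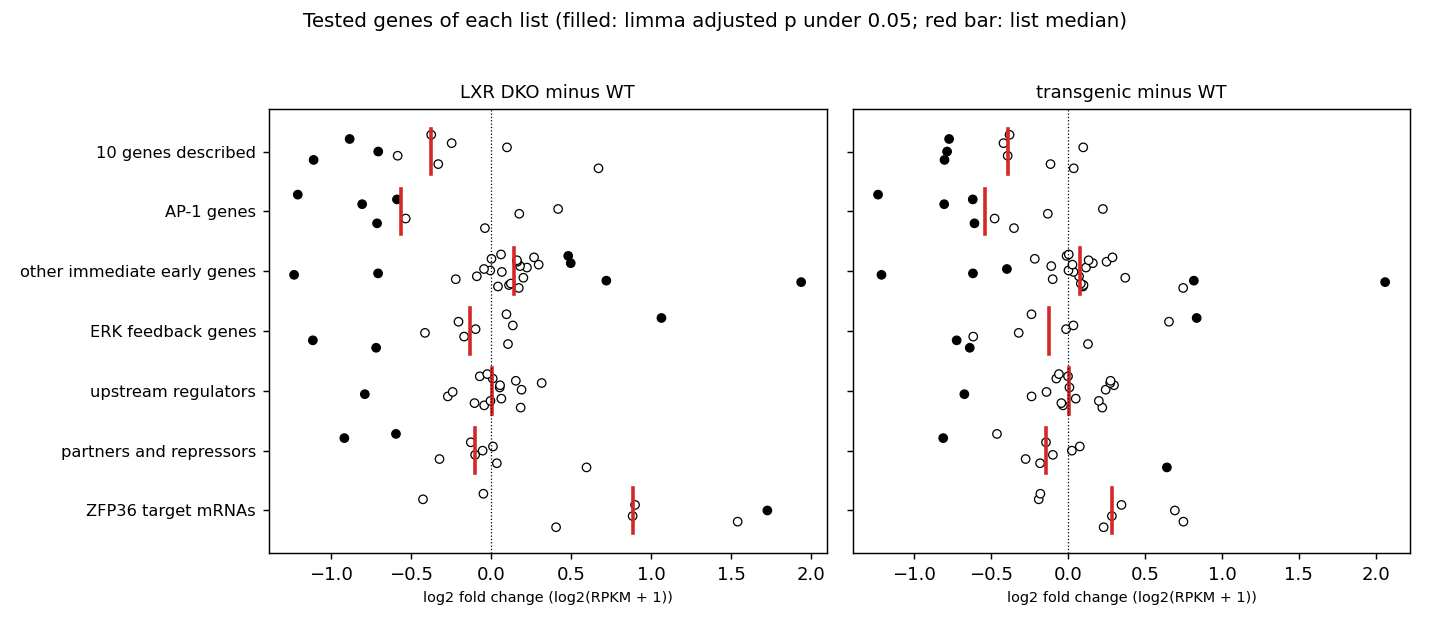
Log2 fold change (log2(RPKM + 1) scale) of the tested genes of each list in LXR DKO minus WT and transgenic minus WT, with filled points where the limma adjusted p is under 0.05 and red bars at list medians. The 9 tested genes described here and the AP-1 genes have medians of -0.38 and -0.56 in LXR DKO minus WT, while the other immediate early genes lie on both sides of 0 (median 0.14).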

How the data were processed

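RNA of 9 corona radiata libraries was sequenced. The authors deposited 1 matrix of RPKM values, and all its value columns were used. Per the submitters' processing notes, the mm10 build and HISAT2 2.1.0 were used, along with HTSeq 0.5.4p5, cutadapt and DESeq2 1.2.8, with no role stated. Not given in the sources used here: the annotation release, strand setting and treatment of multi-mapping reads. Columns named TG-AMBb were matched to the samples described as TG-AMHb by TG and the number. Read numbers were worked back from RPKM with exon lengths of GENCODE M21. For 98.1% of the genes above 0, all values were whole reads to within 0.02. Dusp1 gave whole reads with 2697 bases, not with the 3311 bases of GENCODE M21, whose gene record overlaps Ergic1 on the other strand, so its values are less certain. Floors cover counting error only. Intervals of fold changes come from the limma fit and reflect the variation among the libraries.

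Values were tested as log2(RPKM + 1) with limma 3.58.1 under R 4.3.3, since RPKM values are not counts. Genotype was the only factor, with all libraries in 1 fit and a mean-variance trend, over 16422 genes that reached an RPKM of 1 in 3 or more libraries. P-values were adjusted by Benjamini-Hochberg with a threshold of 0.05. The pseudocount shrinks fold changes of low genes. The fit was also run on simulated data drawn independently for each library. Such data hold no deviations shared between libraries, so the run cannot show how these affect the calls. Named were all 10 genes, from each list up to 4 genes past the threshold with the greatest change per comparison, and the 5 genes nearest in profile. Motif windows, within-library ratios and their exact permutation tests were added after the values were seen. The genes, lists and tests were chosen with earlier results of these data known.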

Additional observations from a re-analysis of the deposited data

How the results depend on the processing

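Fold changes of the 9 tested genes and counts of calls were recomputed under 20 alternative settings and, chosen after seeing the data, with voom on worked-back reads. List genes past the threshold were put through the same settings, also after seeing the data. Marker genes and ratios were not. All 3 calls of LXR DKO minus WT and all 3 of transgenic minus WT kept their sign throughout, and Nr4a2 was too low for the stricter filter (mean RPKM of 5). Array weights gave 6 calls among the genes described in LXR DKO minus WT and 5 in transgenic minus WT, against 3 and 3. Leaving out single libraries gave 2 to 6, 0 to 0 in transgenic minus LXR DKO, and 0 to 5. Over all genes tested the calls in LXR DKO minus WT, 1739, became 2823 with array weights, 1032 with no filter, 807 with only the 2 genotypes, 1145 without WT 1 and LXR DKO 1, and 609 to 2140 without single libraries. In transgenic minus LXR DKO, 19 became 159 with array weights, 93 with only the 2 genotypes, 31 with quantile normalization, and 6 to 150 without single libraries. In transgenic minus WT, 1949 became 4431 with array weights, 1096 with no filter, 1248 without WT 1 and LXR DKO 1, and 650 to 3555 without single libraries. The cause was not tested, apart from the construction of each setting.

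With the replicate number as a block the calls over all genes were 1178, 8 and 1513, and 4, 0 and 3 among the genes described. Dusp1 then passed as higher in LXR DKO minus WT (limma adjusted p = 0.0412; 0.0412 to 0.253 over its alternatives). Of the 9 same-numbered pairs 3 had deviations correlated above 0.1, with 0.67 for LXR DKO 1 and WT 1, the libraries with most oocyte RNA. The lowest was -0.29, and 3 libraries correlated best with their own number. Deviations from a mean of 3 libraries are tied to each other, and the labels are silent. Whether the numbers pair the samples therefore cannot be told.

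Values not past the threshold changed sign as follows. With array weights Ier3 was -0.070 in LXR DKO minus WT and -0.0040 in transgenic minus WT, and in transgenic minus LXR DKO Ier2 was 0.0013, Ier3 0.066 and Zfp36 0.034. Without WT 1 and LXR DKO 1, Ier2, Ier3 and Zfp36 were 0.041, 0.054 and 0.040 in transgenic minus LXR DKO. With voom Ier3 was 0.0013 there. Without single libraries Ier3 ranged from -0.088 to 0.28 in LXR DKO minus WT, -0.094 to 0.12 in transgenic minus LXR DKO and -0.088 to 0.28 in transgenic minus WT. In transgenic minus LXR DKO the ranges were -0.053 to 0.21 for Nr4a2, -0.15 to 0.041 for Ier2 and -0.11 to 0.11 for Zfp36, and in transgenic minus WT -0.11 to 0.20 for Dusp1. Depth limits only Nr4a3.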
